A study of Mus musculus with 6 samples.

Results

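Rab proteins are small GTPases that act as switches on the membranes of cells. In the GTP-bound state each one recruits effectors that bud, carry, tether or fuse vesicles, and GDP dissociation inhibitors return the GDP-bound form to the cytosol. In neurons, Rab3 proteins sit on synaptic vesicles, Rab6 proteins serve the Golgi, Rab5 proteins the early endosome, Rab7 the late endosome and Rab11 proteins the recycling endosome. The family was taken as every probe set annotated to exactly 1 gene whose symbol is Rab followed by a number and at most 1 letter. This gave 59 genes with 132 probe sets, of 18193 singly named genes and 45037 probe sets in all.

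Total RNA from the whole brain of C57/bl6 mice at E18.5 was read on Affymetrix arrays, 3 for Foxf2 mutant and 3 for wild-type (Wt) embryos. Foxf2, a forkhead transcription factor, is known for its role in brain pericytes. The labels do not describe the mutation, nor whether an array held 1 embryo or several or embryos of 1 litter, so a p-value covers only the variation among these arrays, which may be partly technical. Values are MAS5 intensities, and log2 differences are mutant minus wild type of log2(intensity + 16), which understates the change of dim probe sets.

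The median intensity was 24.4 to 25.6 on the mutant arrays and 23.2 to 23.7 on the wild-type arrays. Foxf2 read 8.06, 3.31 and 7.57 on mutant arrays 1, 2 and 3, and 18.6, 24.4 and 13.8 on wild-type arrays 1, 2 and 3, too dim for the test. All 11 markers of neurons and radial glia were above the filter on dim probe sets. Their summed intensity was 20991 to 22029 on the mutant arrays and 20406 to 20958 on the wild-type arrays, so every mutant array summed higher. Singly they went both ways, with no limma adjusted p under 0.05. Tubb3, Syt1, Slc17a6 and Map2 had negative log2 differences, down to -0.19 for Map2. The others were positive, up to 0.31 for Gad1 and 0.32 for Neurod6. The groups did not overlap for Gad1, Neurod6 and Stmn2, with the mutant arrays above, and for Slc17a6, with the mutant arrays below. Of all probe sets above the filter, 20.2% had groups that did not overlap. Single arrays stood apart in markers of other tissues and in sex-linked genes. The 5 muscle markers summed to 1139 on mutant array 3 and to at most 98.8 elsewhere, and 4 pituitary markers summed to 266 on mutant array 3, to 1907 on wild-type array 3 and to at most 63.6 elsewhere. The Y-linked Eif2s3y read 260 on mutant array 2 and at most 2.12 elsewhere. The sex-linked Xist read 13.0 on mutant array 2, 1002 on mutant array 1 and 1956 to 2400 elsewhere. Sex-linked signals thus differed between the groups, and the fit held no term for sex. The 3 measured erythroid markers overlapped, at 72.1 to 300.2 on the mutant arrays and 135 to 226 on the wild-type arrays.

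Of the 132 Rab probe sets, 112 in 52 genes were bright enough to be tested, with a filter at the 40th percentile of mean log2 intensity. In the Foxf2 mutant brains 1 of the 112 rose, a probe set of Rab6a, and 0 fell (limma, Benjamini-Hochberg adjusted p under 0.05 over all 27022 tested probe sets). Over all tested probe sets 0.389% passed, 0.366% higher and 0.0222% lower. Before adjustment, p was under 0.05 for 11 Rab probe sets that read higher and 3 that read lower, against 7.76% and 5.79% of all tested. The groups did not overlap for 25 Rab probe sets, 17 with the mutant arrays above and 8 below, against 20.2% of all tested. The median log2 difference was 0.01 for the Rab probe sets and -0.01 for all tested. With each array centred on its median these became -0.04 and -0.06, and with quantile normalization -0.0041 and -0.02, so the sign of the Rab median turned with the scaling. In whole-brain RNA, fewer cells of a type and less RNA per cell cannot be told apart.

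**Figure D1:**
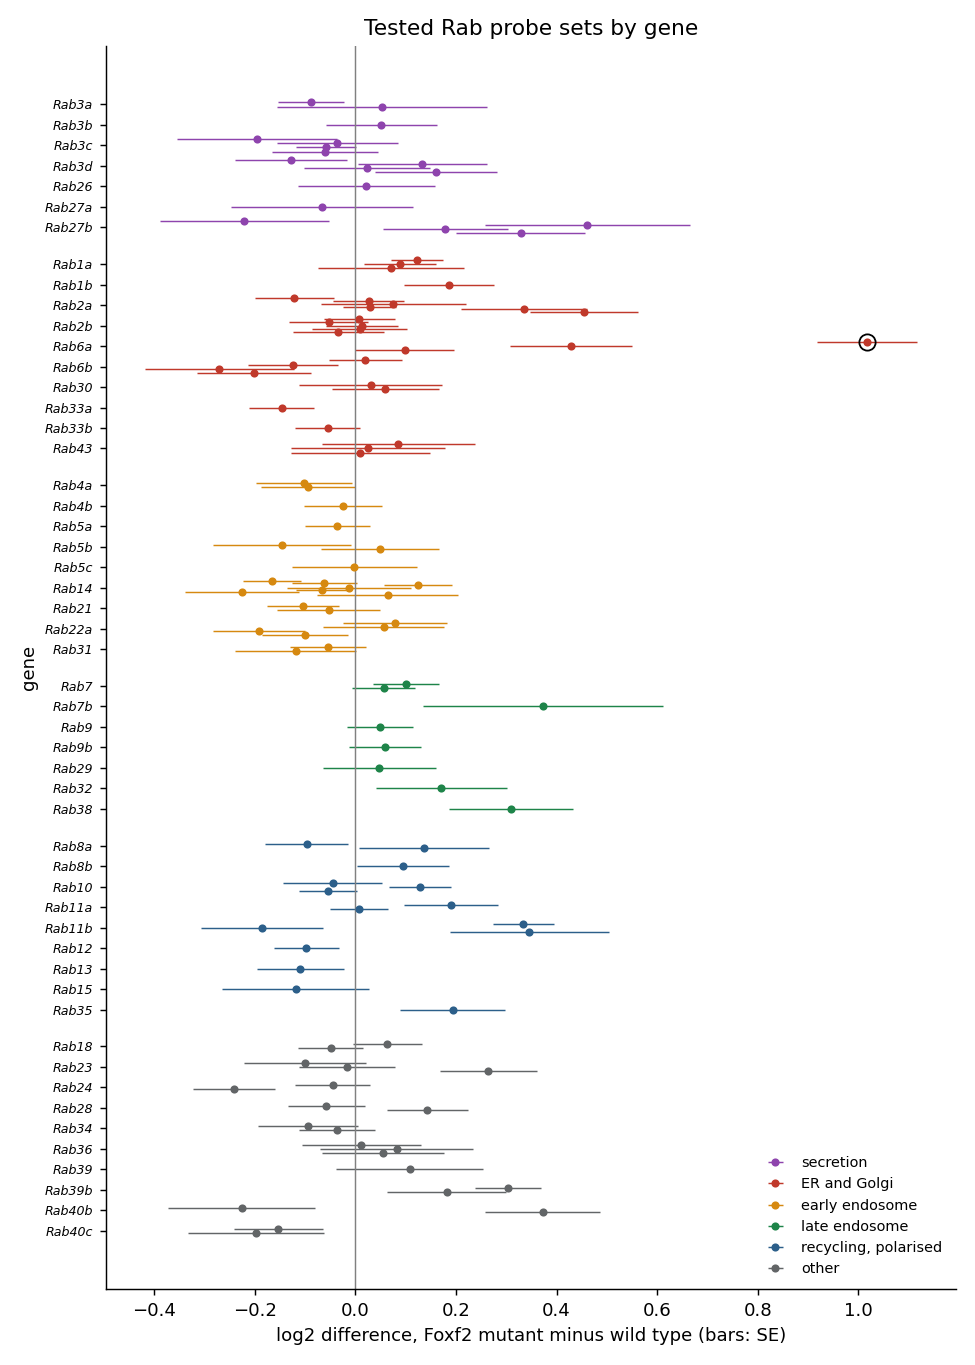
Log2 difference (mutant minus wild type, bars are the SE from limma) of each of the 112 tested Rab probe sets, with 1 row per gene and genes grouped by role. The Rab6a probe set past the threshold is ringed at 1.02, and the other points lie between -0.27 and 0.46.

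Among the Rabs of the endoplasmic reticulum and the Golgi (10 genes, 29 tested probe sets), Rab6a stood first. Rab6a, which acts in retrograde transport through the Golgi, had 3 tested probe sets. On 1447776_x_at it read 1000, 1074 and 1254 on mutant arrays 1, 2 and 3, and 513, 502 and 602 on wild-type arrays 1, 2 and 3. Every mutant array lay above every wild-type array, and the lowest mutant value was far above the highest wild-type value. It averaged 1109 ± 130 in the mutant brains and 539 ± 54.8 in the wild-type brains (SD, n = 3 each), a 2.06-fold ratio of mutant over wild type. The log2 difference was 1.02 ± 0.10 (SE), with a limma adjusted p of 0.0155.

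The call was lost without mutant array 2 (adjusted p = 0.0717) or 3 (0.0731), without wild-type array 1 (0.0944) or 2 (0.0934), and without the variance trend (0.0667). Across the alternatives that kept this probe set, the adjusted p lay between 0.00234 and 0.0944 and the log2 difference between 0.93 and 1.10. It was 0.93 without mutant array 3, which carried the muscle signal, and 1.04 without mutant array 2, which carried the Y-linked signal.

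The other Rab6a probe sets read higher by less. On 1448304_a_at the mutant arrays read 1630, 1492 and 1860 and the wild-type arrays 1095, 1134 and 1480. These groups also did not overlap, though the lowest mutant and the highest wild-type array lay close together, and the log2 difference of 0.43 ± 0.12 (SE) did not pass (limma adjusted p = 0.181). On 1448305_at, the brightest of the 3, the mutant arrays read 1357, 1806 and 1615 and the wild-type arrays 1442, 1572 and 1422. Here the groups overlapped, since mutant array 1 was the lowest of all, and the log2 difference was 0.10 ± 0.10 (SE; limma adjusted p = 0.716). All 3 probe sets thus had a positive difference, of 1.02, 0.43 and 0.10.

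The spread between the Rab6a probe sets was itself tested. The difference on 1447776_x_at exceeded the mean of the others by 0.75 log2 units (limma diffSplice, adjusted p = 0.0194), and a fit of the per-array differences gave 0.75 ± 0.11 (SE; limma adjusted p = 0.0326). The call was lost in 4 of 14 alternatives, with a diffSplice adjusted p of up to 0.115. By the per-array fit 1 of 91 Rab probe sets passed, against 0.582% of all such probe sets. The brightest probe set lay 0.63 below the mean of the others without passing (log2 difference -0.63, diffSplice adjusted p = 0.0533). By diffSplice 2 of 91 Rab probe sets in genes with several passed, both higher than the others of their gene, against 1.89% of all in either direction, 1.22% higher and 0.677% lower.

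The suffix _x_at marks probe sets whose probes can match other transcripts. Of all 1627 tested probe sets with it, 2.46% rose and none fell past the threshold, and their median log2 difference was 0.10. The Rab family had 5 of them, for Rab2b, Rab3a, Rab6a, Rab27b and Rab38, with a median of 0.31 and a range of 0.01 to 1.02. Controls for 18S ribosomal RNA, averaged over 3 probe sets, also read higher on every mutant array, at 28.6, 28.1 and 32.3 against 20.3, 20.9 and 23.4 on the wild-type arrays. The part of either in the Rab6a result was not tested.

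**Figure D2:**
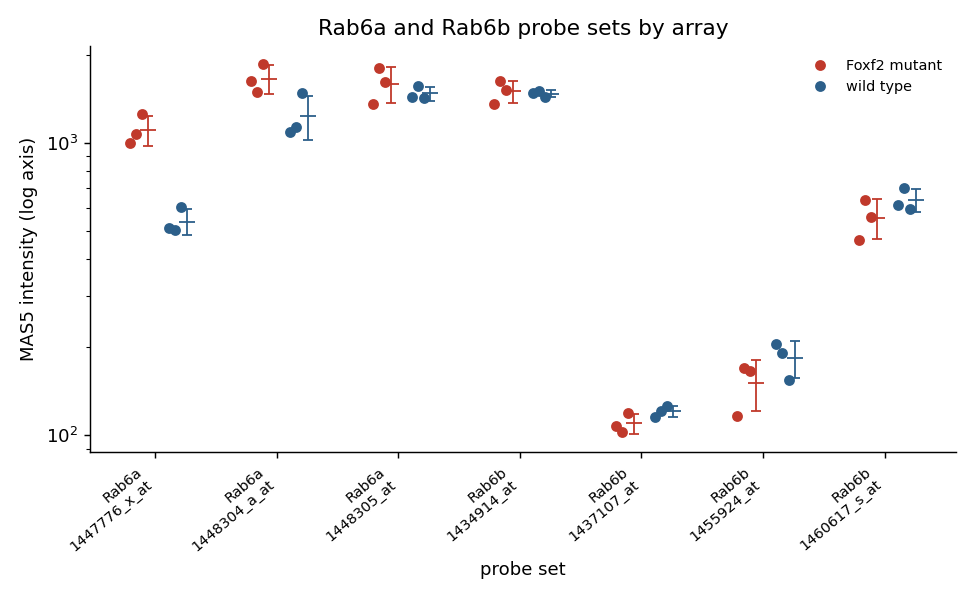
MAS5 intensity (log axis) of the tested probe sets of Rab6a and Rab6b on each array, mutant left of wild type, with the mean and SD beside the points. The mutant arrays lie above the wild-type arrays on 1447776_x_at and 1448304_a_at of Rab6a and overlap with them on the other probe sets.

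Rab6b, a close relative of Rab6a that is abundant in neurons, had no probe set past the threshold. Its brightest probe set, 1434914_at, read 1359, 1629 and 1519 on the mutant arrays and 1486, 1514 and 1435 on the wild-type arrays. The groups overlapped, with mutant array 1 again the lowest, and the log2 difference was 0.02 ± 0.07 (SE; limma adjusted p = 0.933), which turned to -0.03 with median centring and to -0.01 with quantile normalization. The 3 dimmer probe sets of Rab6b had log2 differences of -0.12, -0.27 and -0.20, with adjusted p from 0.469 to 0.585. The difference between Rab6a and Rab6b was not tested.

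Rab2a, which acts between the endoplasmic reticulum and the Golgi, had 6 tested probe sets that went both ways. On 1449676_at, a dim probe set, it read 78.2, 69.5 and 85.5 on the mutant arrays and 50.5, 53.8 and 52.5 on the wild-type arrays. The groups did not overlap, and the log2 difference of 0.45 ± 0.11 (SE) missed the threshold (limma adjusted p = 0.119). This probe set exceeded the mean of the other Rab2a probe sets by 0.39 log2 units, which passed diffSplice (adjusted p = 0.0442) but not the fit of per-array differences (limma adjusted p = 0.163). The diffSplice call was lost in 12 of 15 alternatives, that fit included, with a diffSplice adjusted p of up to 0.258. The brightest Rab2a probe set, 1418622_at, had 2018, 2167 and 1996 on the mutant arrays and 2209, 1909 and 1959 on the wild-type arrays. Those arrays overlapped, with a log2 difference of 0.03 that turned to -0.03 with median centring or quantile normalization. The remaining 4 ran from -0.12 to 0.34.

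Rab33a, a Golgi Rab, read 608, 543 and 577 on the mutant arrays and 656, 628 and 632 on the wild-type arrays. All mutant arrays lay below all wild-type arrays, with a log2 difference of -0.15 ± 0.06 (SE; limma adjusted p = 0.368). Rab1a and Rab1b, which act in transport out of the endoplasmic reticulum, had 4 tested probe sets with log2 differences between 0.07 and 0.19, none past the threshold. The 11 tested probe sets of Rab2b, Rab30, Rab33b and Rab43 lay between -0.06 and 0.08. Over all 29 probe sets of this group 21 (72.4%) read higher, against 48.6% of all tested. With median centring 12 (41.4%) did so, against 36.2%, and with quantile normalization 14 (48.3%), against 45.3%.

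The Rab3 proteins of synaptic and secretory vesicles did not pass the threshold on any of their 11 tested probe sets. Rab3a, the main Rab of synaptic vesicles, was measured on 2. On 1422589_at it read 563, 613 and 615 on the mutant arrays and 642, 658 and 606 on the wild-type arrays, and the groups overlapped by a small margin, with a log2 difference of -0.09 ± 0.07 (SE; limma adjusted p = 0.599). On 1459980_x_at it read 1115, 2142 and 2005 on the mutant arrays and 1603, 1765 and 1516 on the wild-type arrays. Mutant array 1 was the lowest and mutant array 2 the highest of all, and the log2 difference was 0.05 ± 0.21 (SE; limma adjusted p = 0.937), which turned to -0.12 without mutant array 2, to -0.07 without mutant array 3 and to -0.00080 with median centring. The 2 probe sets differed by 0.14 log2 units, less than the SE of the _x_at probe set.

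Rab3b, a vesicle Rab also known from endocrine cells, read 202, 244 and 253 on the mutant arrays and 211, 257 and 205 on the wild-type arrays. The groups overlapped across their whole range, with a log2 difference of 0.05 ± 0.11 (SE; limma adjusted p = 0.879). Rab3c, a synaptic vesicle Rab, had 4 tested probe sets that all read slightly lower. Its brightest, 1435047_at, read 1056, 967 and 1002 on the mutant arrays and 1042, 1027 and 1081 on the wild-type arrays, with a log2 difference of -0.06 ± 0.06 (SE; limma adjusted p = 0.721). The other 3 ran from -0.20 to -0.04. Rab3d, best known from exocrine cells, had 4 dim probe sets with log2 differences from -0.13 to 0.16. The brightest read 101, 84.9 and 74.4 on the mutant arrays and 79.0, 86.5 and 66.9 on the wild-type arrays.

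The other secretory Rabs were dim. Rab27b, which docks secretory granules, had 4 tested probe sets between -0.22 and 0.46, the widest spread within a gene after Rab6a at 0.68 log2 units. Its mutant arrays lay above the wild-type arrays on 1443764_x_at alone, at 27.9, 34.6 and 26.7 against 20.4, 20.6 and 19.9. Rab26 and Rab27a had 1 tested probe set each, with log2 differences of 0.02 and -0.07.

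Early endosome Rabs (9 genes, 22 tested probe sets) had 0 probe sets past the threshold in limma and 1 at an unadjusted p under 0.05. Rab5a, which drives early endosome fusion, read 1100, 1043 and 1082 on the mutant arrays and 1181, 1090 and 1041 on the wild-type arrays. The groups overlapped, and the log2 difference was -0.04 ± 0.06 (SE; limma adjusted p = 0.849), turning to 0.01 without wild-type array 1. Rab5b, another Rab5 isoform, had -0.15 ± 0.14 (SE) on its brighter and 0.05 ± 0.12 (SE) on its dimmer probe set. The brighter one read 48.9, 54.2 and 70.0 on the mutant arrays and 68.3, 56.4 and 71.0 on the wild-type arrays. Rab5c read 184, 138 and 146 on the mutant arrays and 134, 165 and 168 on the wild-type arrays. The Rab5c groups overlapped, with mutant array 1 the highest of all, and a log2 difference of -0.0028 (limma adjusted p = 0.994) whose sign changed in 5 alternatives.

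Of the 22 probe sets 17 had a negative log2 difference, with a median of -0.06, where 13892 of all 27022 tested were negative. The share of all tested went with brightness. Most of the 22 averaged 100 or more, where 7053 of all 11905 tested were negative, against 6839 of 15117 under 100. With median centring 18 of the 22 and 17252 of all tested were negative, and with quantile normalization 16 of the 22 and 14772 of all tested. The mutant arrays lay below all wild-type arrays for 5 of them and above for 0, against 9.38% and 10.9% of all tested. All 5 averaged 100 or more, and at that intensity 1628 of all 11905 tested lay below and 1256 above. The lower ones were 3 of the 7 probe sets of Rab14, a Rab of Golgi and endosome traffic, and 1 each of the endosomal Rab21 and Rab22a. Rab14 on 1415686_at read 512, 497 and 501 on the mutant arrays and 565, 560 and 577 on the wild-type arrays. Its log2 difference was -0.17 ± 0.06 (SE; limma adjusted p = 0.26), while another Rab14 probe set had 0.12, so the probe sets of this gene did not share a sign. Rab4a, Rab4b and Rab31, which act in early endosome sorting and recycling, had 5 probe sets between -0.12 and -0.02.

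Late endosome and lysosome Rabs (7 genes, 8 tested probe sets) all had positive log2 differences, against 48.6% of all tested. Of the 8, 0 passed the threshold in limma and 1 had an unadjusted p under 0.05. Rab7, the Rab of late endosome maturation, read 1293, 1390 and 1406 on the mutant arrays and 1190, 1298 and 1327 on the wild-type arrays on 1415734_at. The groups overlapped, with a log2 difference of 0.10 ± 0.07 (SE; limma adjusted p = 0.544). Its other probe set gave 0.06 ± 0.06 (SE), so the 2 agreed within their errors. Rab7b, a relative in lysosome to Golgi traffic, was tested on 1 dim probe set that read 14.6, 35.5 and 11.02 on the mutant arrays and 7.78, 9.61 and 16.2 on the wild-type arrays. Mutant array 2 alone was high, and the log2 difference was 0.37 ± 0.24 (SE; limma adjusted p = 0.536). Without mutant array 2 it was too dim for the test. Rab9, Rab9b and Rab29 lay between 0.05 and 0.06, and the melanosome Rabs Rab32 and Rab38 had 0.17 and 0.31 at intensities under 30. With median centring 6 of the 8 were positive, against 36.2% of all tested, and with quantile normalization all 8, against 45.3%. Rab7b, Rab29, Rab32 and Rab38 averaged under 100, where 54.8% of all tested were positive. Of all tested with the suffix _x_at, which the Rab38 probe set had, 69.5% were positive.

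Among the Rabs of recycling and polarised transport (9 tested genes, 15 probe sets), Rab11b lay nearest to the threshold. Rab11b, the recycling endosome Rab enriched in brain, read 826, 880 and 894 on the mutant arrays and 701, 670 and 681 on the wild-type arrays on 1423448_at. The groups did not overlap and each was tight, at 867 ± 35.9 (SD, n = 3) and 684 ± 15.9 (SD, n = 3). The log2 difference was 0.33 ± 0.06 (SE), with a limma adjusted p of 0.0613. It passed with the filter at the 60th percentile (adjusted p = 0.0437) and with the variance model fitted on tested probe sets only (0.0479), and over all alternatives adjusted p ran from 0.0437 to 0.232. The much dimmer probe sets of Rab11b had log2 differences of 0.35 on 1439508_at and -0.19 on 1435253_at. The probe set 1435253_at lay 0.53 log2 units below the mean of the others (log2 difference -0.53, diffSplice adjusted p = 0.0654).

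Rab11a, its widely expressed relative, read 789, 763 and 857 on the mutant arrays and 607, 742 and 764 on the wild-type arrays on 1434549_at. The groups overlapped at a single pair of near-equal arrays, with a log2 difference of 0.19 ± 0.09 (SE; limma adjusted p = 0.415). The other Rab11a probe set gave 0.01 ± 0.06 (SE). Rab12, a Rab of recycling endosomes and autophagy, read 317, 293 and 297 on the mutant arrays and 327, 322 and 324 on the wild-type arrays. All mutant arrays were lower, by a log2 difference of -0.10 ± 0.07 (SE; limma adjusted p = 0.554). Rab8a, Rab8b, Rab10, Rab13, Rab15 and Rab35 had 9 probe sets between -0.12 and 0.19.

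Of the 10 other tested genes, Rab39b came closest to the threshold. Rab39b, a neuronal Rab linked to intellectual disability in humans, read 249.6, 253 and 253 on the mutant arrays and 201, 203 and 199 on the wild-type arrays on 1435014_at. The arrays of each group agreed closely and the groups did not overlap, with a log2 difference of 0.30 ± 0.07 (SE; limma adjusted p = 0.102). Its other probe set gave 0.18 ± 0.12 (SE), in the same direction.

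Rab40b, a Rab with a SOCS box, read 71.1, 86.0 and 75.5 on the mutant arrays and 49.3, 59.7 and 59.8 on the wild-type arrays on 1436566_at. The groups did not overlap (log2 difference 0.37 ± 0.11 SE, limma adjusted p = 0.213), while the other Rab40b probe set gave -0.23 ± 0.15 (SE). That gap of 0.60 log2 units did not pass (diffSplice adjusted p = 0.0793). Rab40c, its paralogue, read 306, 251 and 294 on the mutant arrays and 305, 307 and 337 on the wild-type arrays. The groups overlapped by less than 1 unit of intensity, with a log2 difference of -0.15 ± 0.09 (SE; limma adjusted p = 0.487).

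Rab23, a regulator of Hedgehog signalling at the cilium, read 147, 140 and 139 on the mutant arrays and 113, 104 and 132 on the wild-type arrays on 1454876_at. The mutant arrays were higher throughout, with a log2 difference of 0.26 ± 0.10 (SE; limma adjusted p = 0.284), but the other Rab23 probe sets had -0.10 and -0.02. The remaining 13 probe sets of these 10 genes ran from -0.24 to 0.14.

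**Figure D3:**
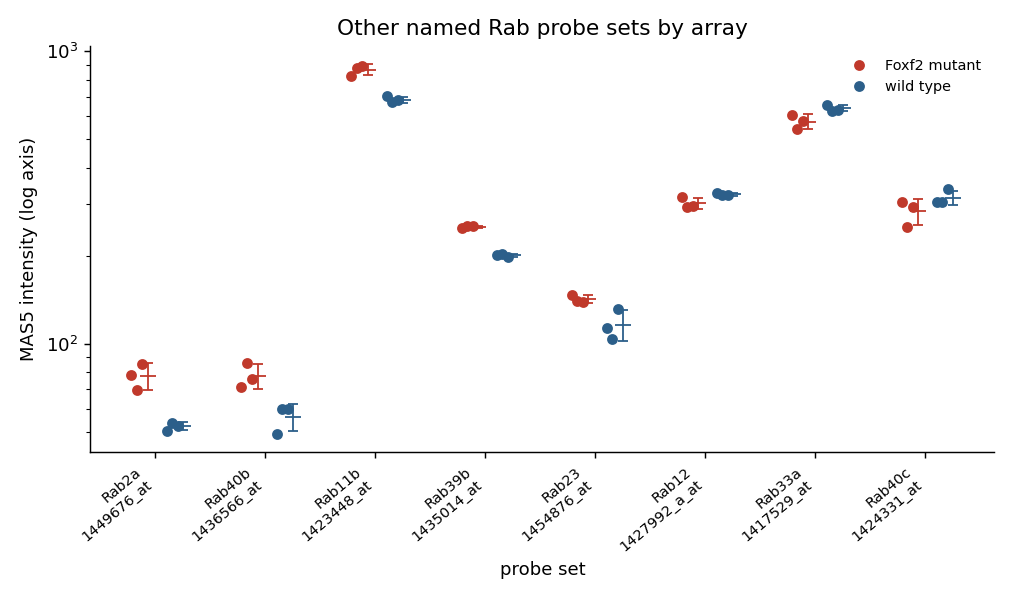
MAS5 intensity (log axis) on each array of further named Rab probe sets, mutant left of wild type, with the mean and SD beside the points. The bars are the SD. Groups do not overlap for Rab2a, Rab40b, Rab11b, Rab39b and Rab23 (mutant above) and for Rab12 and Rab33a (mutant below), and none of these passed the adjusted threshold.

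Agreement between probe sets of a gene was partial. In 31 Rab genes 2 or more probe sets were tested, and in 15 of them (48.4%) all had the same sign, against 41.2% of 6199 genes of any kind. The median spread between the highest and lowest log2 difference within a gene was 0.18 for Rab genes and 0.21 for all. It exceeded 0.5 in 5 Rab genes, Rab6a, Rab27b, Rab40b, Rab2a and Rab11b, or 16.1% against 11.1% of all. Among genes with exactly 2 tested probe sets it did so in 1 of 16 Rab genes (6.25%), against 5.62% of all. The narrowest spreads were those of Rab4a at 0.0075, Rab30 at 0.03, Rab7 at 0.04 and Rab40c at 0.04. The median SD between arrays of a group was 0.10 log2 units in the mutant and 0.08 in the wild-type group for Rab probe sets, against 0.13 and 0.12 for all tested. The Rab probe sets were brighter, with 70 of 112 at 100 or more against 11905 of all 27022 tested. The SD was not compared at matched intensity.

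A further 7 genes had no probe set bright enough for the test, namely Rab17, Rab19, Rab20, Rab25, Rab37, Rab42 and Rab44. Among these, Rab17 and Rab25 are known from epithelial cells. Together with dim probe sets of other members they made up the 20 untested Rab probe sets, of which 4 had every mutant array above every wild-type array, against 9.95% of all untested, and 1 had every mutant array below every wild-type array, against 3.01%. That one, 1457783_at of Rab12, read 10.9, 9.58 and 8.11 on the mutant arrays and 14.6, 13.6 and 19.2 on the wild-type arrays, and was not tested.

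**Figure D4:**
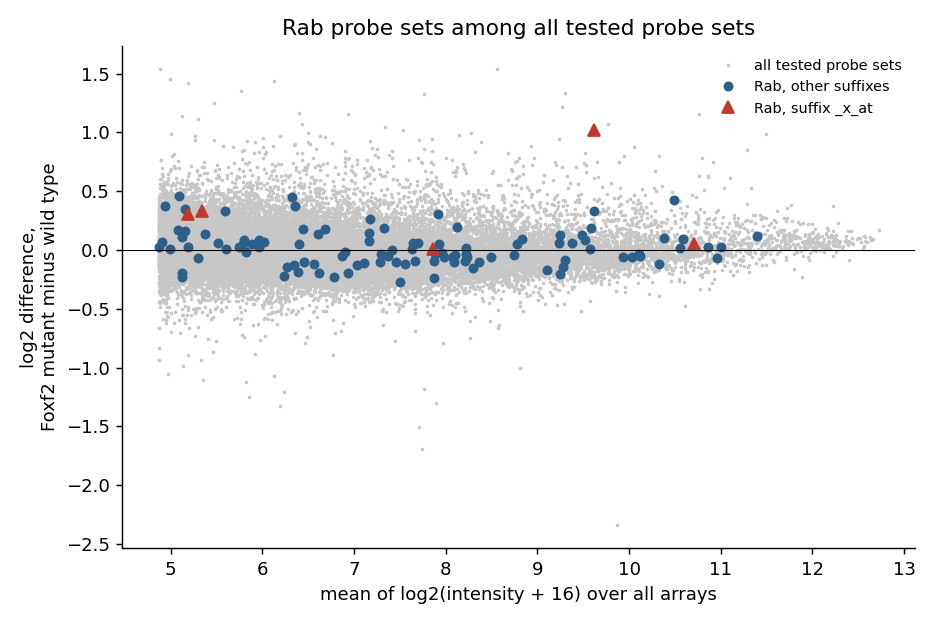
Log2 difference (mutant minus wild type) against the mean of log2(intensity + 16) over all 6 arrays for the 27022 tested probe sets (grey) and the 112 Rab probe sets, with those of suffix _x_at as triangles. The Rab6a probe set at 1.02 lies apart from the other Rab probe sets, which lie between -0.27 and 0.46.

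Lists of known Rab regulators and effectors were read in the same fit, and 1 gene had a probe set past the threshold, against 0.724% of all tested genes. Of 7 tested genes of the membrane cycle, 0 passed in limma, and 2 probe sets had an unadjusted p under 0.05. Gdi2, the widely expressed GDP dissociation inhibitor, had a log2 difference of 0.21 ± 0.07 (SE; limma adjusted p = 0.271) on its brightest probe set, and its 6 tested probe sets ranged from 0.03 to 0.32. Rabac1, a prenylated Rab acceptor, had -0.15 ± 0.08 (SE). The median over the 7 genes was -0.10 on the brightest probe set of each, against -0.01 for all tested genes, but 0.03 over all their 15 tested probe sets, of which 9 read higher and 6 lower.

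Of 27 tested exchange factor genes, 0 passed, and 6 of their 49 probe sets had an unadjusted p under 0.05 (3 higher, 3 lower). The brightest probe set read lower for 22 of the 27 on the deposited scaling, with a median of -0.07, where 6505 of 12573 genes of any kind read lower. Over all 49 probe sets of these genes 31 read lower and 18 higher, with a median of -0.04. Of all tested probe sets, 7053 of 11905 at an intensity of 100 or more read lower, and 6839 of 15117 under 100. Dennd4a, an exchange factor of the Rab10 pathway, had 0.43 ± 0.13 (SE; limma adjusted p = 0.208) and Rab3ip, which activates Rab8 proteins, -0.23 ± 0.10 (SE; limma adjusted p = 0.348). Of 22 GTPase-activating protein genes, 0 passed, and 3 of 45 probe sets had an unadjusted p under 0.05 (2 higher, 1 lower). Tbc1d17 had -0.42 ± 0.12 (SE; limma adjusted p = 0.204) and Tbc1d14, a regulator of autophagy, 0.15 ± 0.06 (SE; limma adjusted p = 0.298), around a median of -0.02. The dimmer tested probe sets of Tbc1d14 had -0.06 and 0.47, so they did not share a sign.

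Of 38 tested effector genes, 1 had a probe set that rose and 0 fell. Appl1, an endosomal effector of Rab5, read 67.0, 83.2 and 65.7 on the mutant arrays and 33.8, 27.5 and 38.9 on the wild-type arrays on 1436116_x_at. Its groups did not overlap, and the log2 difference was 0.83 ± 0.14 (SE; limma adjusted p = 0.0482). The call was lost whichever single array was left out. The other 3 Appl1 probe sets, each brighter, had -0.10, -0.14 and 0.07, and this probe set differed from their mean by 0.89 log2 units (diffSplice adjusted p = 8.6e-05, per-array fit in limma adjusted p = 0.0425). As with Rab6a, the called probe set had the suffix _x_at. The median of the effector genes was -0.02 on the brightest probe set of each.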

How the data were processed

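Per the submitters' processing notes the deposited intensity values come from MAS5, whose version is not given in the sources used here. The values show a scaling already applied, since the mean trimmed by 2% at each end was 100 on every array, and they were not normalized again. Such scaling hides changes in total RNA. Genes came from the platform annotation, and all 59 Rab genes were found in RefSeq (GRCm38.p6) under the same symbol. Probe sequences and genome positions were not used here.

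In R 4.3.3, limma 3.58.1 (lmFit, eBayes with a variance trend, two-sided) was fitted to log2(value + 16) of 45037 probe sets, leaving out 64 controls. Benjamini-Hochberg adjustment covered the 27022 above the filter, an intensity of about 13.2. Probe sets of a gene were compared with diffSplice. On simulated data limma kept to its threshold, but diffSplice called unchanged genes more often than it allows, so limma on per-array differences stands beside it.

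Members and lists were chosen with earlier results of these data known. Named were genes with a probe set past either threshold, the Rab3, Rab5, Rab6, Rab7 and Rab11 subfamilies, and the next 3 genes per direction by p on the brightest probe set. Of each regulator list, members past the threshold or the 2 of smallest p on the brightest probe set were named. Other genes were named after their values were seen. Singly named probe sets existed for 7 of 8 membrane cycle, 29 of 30 exchange factor, 23 of 23 GTPase-activating and 41 of 48 effector genes. Alternatives changed the offset, filter, scaling, variance model, probe sets, a replicate block and single arrays. The number of arrays limits precision.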

Additional observations from a re-analysis of the deposited data

Results flagged for a closer look

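Among the 20 Rab probe sets too dim for the test, 4 read higher on every mutant array than on every wild-type array, where 9.95% of all untested probe sets did so. A probe set of Rab12 (1457783_at) went the other way, at 9.52 in the mutant and 15.8 in the wild-type arrays, as did 3.01% of all untested. Rab38 (1417700_at) averaged 13.0 in the mutant and 8.44 in the wild-type arrays, and its tested probe set had a log2 difference of 0.31. Rab37 (1450167_at), a Rab of secretory granules, averaged 7.96 in the mutant and 3.02 in the wild-type arrays, while its other probe set averaged 5.66 in the mutant and 7.91 in the wild-type arrays. Rab27a (1425284_a_at) averaged 6.11 in the mutant and 3.22 in the wild-type arrays, while its tested probe set had a log2 difference of -0.07. Rab7b (1444063_at) averaged 3.32 in the mutant and 0.697 in the wild-type arrays. All lie below the filter, and the differences were not tested.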

How the results depend on the processing

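Of 397 values of the 22 named log2 differences and the 2 differences between probe sets under 18 alternatives, 354 kept direction and side of the threshold, 21 lost a call, 2 gained one and 20 changed sign. The 1 Rab call, Rab6a, became 2 with the filter at the 60th percentile or with eBayes on tested probe sets only (both adding Rab11b), and 0 without the variance trend (13 at an unadjusted p under 0.05), with 1 probe set per gene (7), which drops the called one, or without x_at probe sets (11). It ranged from 0 to 1 when single arrays were left out, with 8 to 16 Rab probe sets at an unadjusted p under 0.05. With the replicate block there were 2, both of Rab6a. The calls over all 105 became 181 and 64 with offsets of 1 and 64, 52 without a filter, 167 with the filter at the 60th percentile, 56 with median centring, 0 without the trend (3497 at an unadjusted p under 0.05), 220 with the replicate block, 12 with 1 probe set per gene, 225 with eBayes on tested probe sets only, 32 without x_at probe sets, and 0 to 34 without single arrays. The regulator call of Appl1 became 0 with offset 64, without a filter, with median centring, without the trend, with the replicate block, with 1 probe set per gene, without x_at probe sets and whichever single array was left out, with 9 to 27 genes at an unadjusted p under 0.05 under these settings. The 2 differences between probe sets became 1 with offset 1, without a filter, with median centring and by the per-array fit. With offset 64 they became 3, of Rab6a and Rab11b but not of Rab2a. They became 5 with the filter at the 60th percentile or the replicate block, 0 without x_at probe sets, and 0 to 2 without single arrays. The alternatives with eBayes on tested probe sets only, without x_at probe sets and by the per-array fit were chosen after seeing the data. diffSplice uses no variance trend and needs several probe sets per gene, so those alternatives gave no value for it.

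Sign changes fell in 6 genes, all far from the threshold. With quantile normalization Rab2a became -0.034, Rab6b -0.013 and Rab5c 0.022. With median centring Rab2a became -0.028, Rab6b -0.034, Rab3a -0.00080 and Rab3b -0.0028. Leaving out single arrays gave -0.015 to 0.090 for Rab2a, -0.12 to 0.35 for Rab3a, -0.0066 to 0.15 for Rab3b, -0.077 to 0.013 for Rab5a, -0.12 to 0.072 for Rab5c and -0.040 to 0.089 for Rab6b. Deviations of same-numbered arrays correlated at 0.19, 0.13 and 0.09, and each array correlated best with its own number. Deviations within a group sum to 0, so some positive correlation across groups was bound to arise. This is a weak hint from the data and not from the design, so the fit with the replicate block is given only here. The cause of these changes was not tested.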
